A study of Mus musculus with 4 samples.

Results

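The genes described here encode 42 proteins of the lysosome, 36 soluble proteins of its lumen and 6 proteins of its membrane, out of 46603 gene IDs in the deposited table, of which 30237 had a count. They were taken by gene symbol from a fixed list of names, and each symbol matched 1 gene ID. They were grouped into 12 proteases, 10 glycosidases, 4 sulfatases, 9 lipid enzymes with their activators and carriers, 6 membrane proteins and Grn, a soluble protein of none of these classes. Polyadenylated RNA had been sequenced from mouse embryonic stem cells of 2 genotypes, Gsk3a-/-;Gsk3b-/- and wild-type, with 2 biological replicates of each. Both genotypes were grown in serum and LIF on irradiated embryonic fibroblasts, the feeder cells. The age entry of the samples reads embryonic day 16, against E15 in the design text. The deposited table names its groups only A and B and no label ties either letter to a genotype, so every change is that of group B relative to group A.

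Lysosomes are acidic organelles in which enzymes digest proteins, glycans, sulfated sugars and lipids that arrive by endocytosis and autophagy. Most of the soluble enzymes are made in the endoplasmic reticulum, tagged with mannose 6-phosphate in the Golgi apparatus and carried to the organelle by mannose 6-phosphate receptors. Many of their genes are targets of TFEB, TFE3 and MITF, transcription factors that bind an E-box motif called the CLEAR element and that are kept out of the nucleus by phosphorylation. GSK3 has been described as one of the kinases that act on TFEB.

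The table holds the mean normalized count of each group, that is read counts divided by library size factors. Because each mean is built from the whole reads of 2 libraries and their size factors, the counts of the single libraries could be recovered, and these libraries are called B1, B2, A1 and A2 where 1 marks the library with more counts and not a labelled replicate. Library totals were 112655210 to 146326307 counts. Gsk3a, one of the targeted genes, had normalized counts of 1697 and 1347 in B1 and B2, against 6353 and 7104 in A1 and A2. Gsk3b had 5051 and 5002 in group B, against 5438 and 6285 in group A, and neither gene was used to assign a genotype. Markers of pluripotent cells were abundant in every library, with 105470 and 93404 counts of Pou5f1 in group B and 115580 and 125790 in group A. Libraries of the same group differed in markers of feeder fibroblasts, whose summed level over 18 genes was 38497 in B1 and 200620 in B2, against 138560 in A1 and 67771 in A2. In bulk RNA, fewer cells of a type and less RNA per cell cannot be told apart. All 2601 genes of chromosome X in the table are listed at 0, as are the 1570 of chromosome Y and the 37 of the mitochondrial genome, so X-linked lysosomal genes have no value here. None of the 42 genes lies on these chromosomes.

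Most of the lysosomal genes had higher levels in group B, and 9 of the 42 rose past the threshold, while Ctsf and Manba fell. In the authors' deposited table the 9 that rose at an adjusted p under 0.05 were Ctsa, Ctsb, Ctsl, Ctsz, Tpp1, Hexa, Asah1, Cd63 and Grn. These are 21.4% of the 42 genes, against 1.54% of all genes tested and 2.38% of the 10106 genes whose mean normalized count reached 1000, a level reached by 35 of the 42. The 2 genes that fell are 4.76%, against 1.92% of all genes tested and 2.65% of those that reached 1000. The list was chosen with earlier results of these data known, so these shares are a description and not a test. The log2 fold change of the authors' deposited table was above 0 for 34 of the 42 genes, with a median of 0.44, whereas the median of all genes tested was 0.0008. Among the 35 that reached 1000, each B library exceeded each A library for 26 and lay under them for 5. This held for 28.9% and 26.1% of all genes at that level. Normalized counts summed over the 42 genes were 565750 in B1 and 600920 in B2, against 409160 in A1 and 372000 in A2, a ratio of group means of 1.49.

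With limma on the recovered libraries 7 of the genes rose and 1 fell at an adjusted p under 0.05, against 0.977% and 1.03% of the 20465 genes in that fit. Ctsb, Ctsz, Tpp1, Hexa, Asah1 and Cd63 rose in both analyses and Manba fell in both. Lamp1 rose in limma alone, and Ctsa, Ctsl, Grn and Ctsf passed in the authors' test alone. Without A1 or A2, when the spread rests on the B libraries alone, limma called 0 genes of the whole table. Without B1 or B2, when it rests on the A libraries alone, 14 and 11 of the lysosomal genes were higher, against 2.17% and 2.69% of all genes in those fits. At an unadjusted p under 0.05 on all libraries, 19 of the lysosomal genes were higher and 2 lower in the authors' deposited table, against 5.11% and 5.41% of all genes tested. Limma had 23 higher and 3 lower at that threshold, against 10.3% and 10.4% of the genes in its fit. At an unadjusted p under 0.05, 20 of the lysosomal genes were higher and 2 lower in limma without A1, against 5.96% and 5.87% of all genes. Without A2 they were 13 and 2, against 5.19% and 4.74%.

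**Figure D1:**
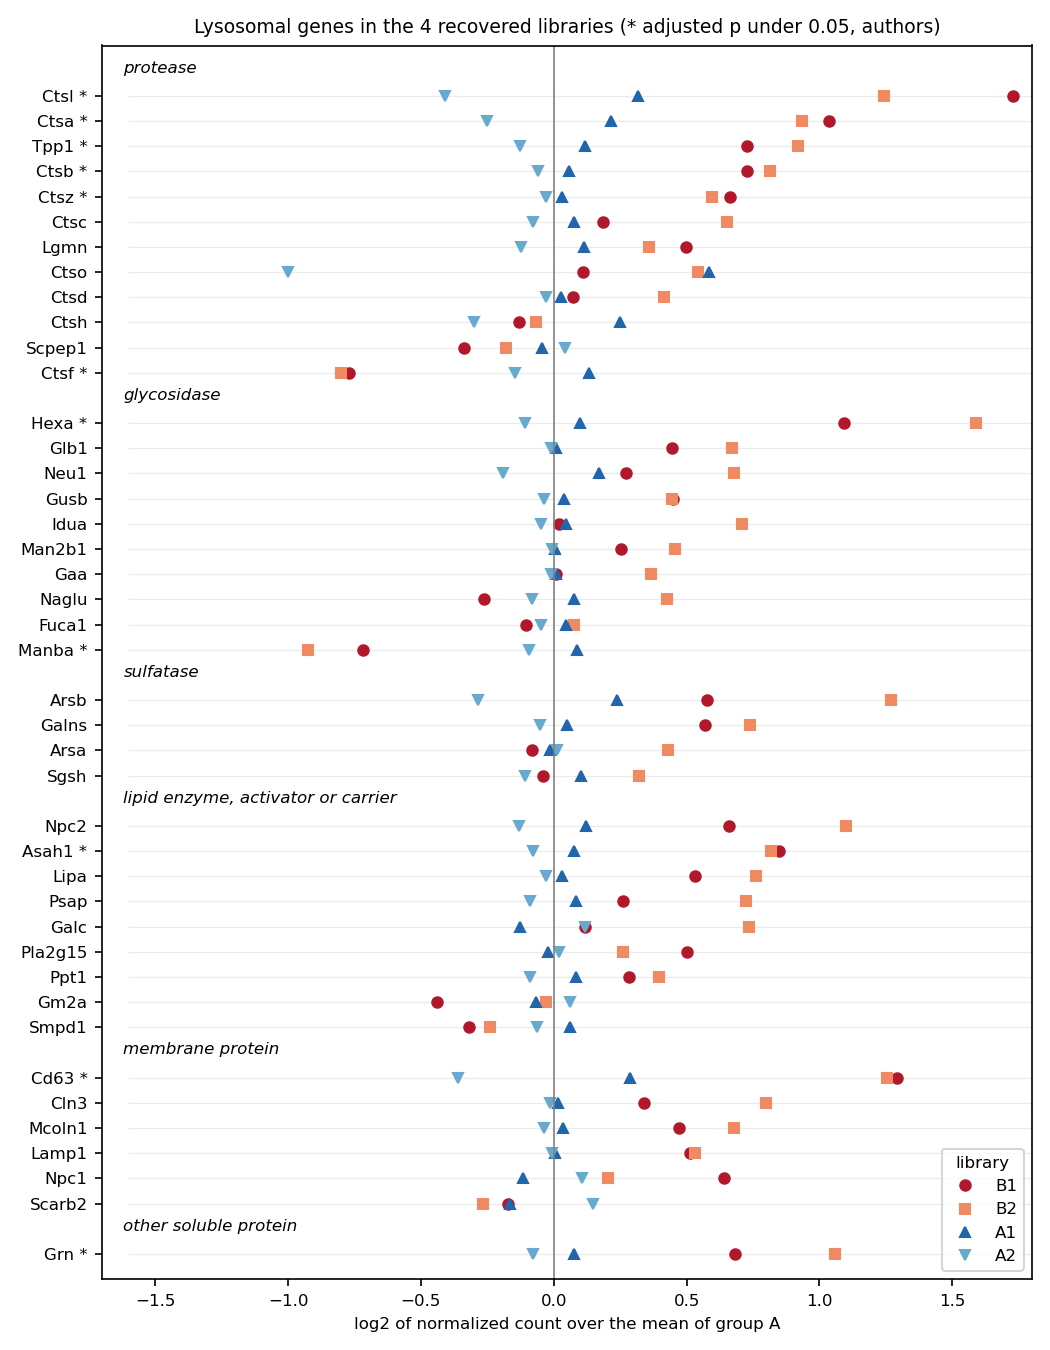
Normalized count of each of the 42 genes in the 4 recovered libraries, as log2 of its ratio to the mean of group A (x axis), with genes in rows by class. Stars mark adjusted p under 0.05 in the authors' deposited table, and the 9 starred genes right of 0 and 2 left of it show no overlap between the B libraries (circles and squares) and the A libraries (triangles).

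Of the 12 proteases 5 rose and Ctsf fell in the authors' deposited table, and 6 did not pass, with a class median log2 fold change of 0.43. The genes that rose and fell are 41.7% and 8.33% of the class, against 1.54% and 1.92% of all genes tested. Ctsl, a cysteine cathepsin with broad endopeptidase activity, showed the largest change of the 42 genes. Its normalized counts were 90833 in B1 and 64815 in B2, against 34137 in A1 and 20642 in A2. The libraries did not overlap, and those of each group lay far apart from one another. The log2 fold change of Ctsl (ENSMUSG00000021477, chr13:64359337-64370890, mm10) was 1.51 with an adjusted p of 0.0103 in the authors' deposited table. Limma on the recovered libraries gave Ctsl 1.53 (SE 0.27, adjusted p 0.0547).

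Ctsa, a serine carboxypeptidase that also stabilizes beta-galactosidase and neuraminidase, had 18428 and 17167 normalized counts in group B, against 10433 and 7540 in group A. Both B libraries were well above the higher A library. Its log2 fold change (ENSMUSG00000017760, chr2:164832873-164841032) was 0.99 with an adjusted p of 1.17e-05 in the authors' deposited table, and limma gave an adjusted p of 0.0503 (SE of its log2 fold change 0.17). Glb1 and Neu1, the other members of that complex, are described with the glycosidases.

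Ctsb, a cysteine cathepsin that acts both inside protein chains and at their carboxyl ends, had 34365 and 36513 normalized counts in group B, against 21597 and 19929 in group A. The spread within each group was small beside the gap between them. In the authors' deposited table its log2 fold change (ENSMUSG00000021939, chr14:63122462-63145923) was 0.77 with an adjusted p of 0.00157, and limma gave 0.77 (SE 0.09, adjusted p 0.0309). Exons of Ctsb share 774 bases with exons of Fdft1 on the opposite strand. The library kit kept strand per the labels, but whether reads were counted by strand is not stated in the labels, so reads of that stretch may belong to either gene. In all, exons of 18 of the 42 genes overlap those of another gene in GENCODE M21, 3 of them on the same strand. Exons of Ctsl share 1742 bases with Gm47123 on the opposite strand and 395 with Gm49230 on the same strand. Those of Ctsa share 495 bases with Pltp on the opposite strand.

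Tpp1, which removes tripeptides from the amino end of proteins, had 15054 and 17172 normalized counts in group B, against 9849 and 8325 in group A. Ctsz, a carboxypeptidase of the cysteine cathepsins, had 15901 and 15189 in group B, against 10259 and 9836 in group A. Neither gene's groups overlapped. For Tpp1 (ENSMUSG00000030894, chr7:105744811-105752235) the authors' deposited table gives a log2 fold change of 0.83 and an adjusted p of 0.000681, against 0.83 (SE 0.13, adjusted p 0.0433) in limma. For Ctsz (ENSMUSG00000016256, chr2:174427493-174439039) the values were 0.63 and 0.0189 in the authors' deposited table, and 0.63 (SE 0.09, adjusted p 0.0406) in limma.

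Ctsf, another cysteine cathepsin, had lower levels in group B. It had 1153 and 1131 normalized counts in group B, against 2160 and 1779 in group A, with near-equal B libraries below both A libraries. Its log2 fold change (ENSMUSG00000083282, chr19:4855130-4860918) was -0.79 with an adjusted p of 0.00471 in the authors' deposited table, and limma gave -0.78 (SE 0.16, adjusted p 0.0702).

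Ctsd, the main aspartic protease of the lysosome, had the highest mean normalized count of its class over both groups, just above Ctsl, and did not pass. Its normalized counts were 51462 in B1 and 65242 in B2, against 49893 in A1 and 48008 in A2, so B1 was close to the A libraries and B2 above them (0.25 on the log2 scale at adjusted p 0.954, from the authors' deposited table). Exons of Ctsd share 808 bases, 34.4% of their length, with Gm49369 on the same strand. The other proteases that did not pass were Ctsc, which activates granule serine proteases, the asparaginyl endopeptidase Lgmn, the carboxypeptidase Scpep1, the aminopeptidase Ctsh and Ctso. Their log2 fold changes ran from -0.26 for Scpep1 to 0.44 for Ctsc in the authors' deposited table. Ctsc and Lgmn were higher in each B library than in either A library, Scpep1 was lower in each, and the groups of Ctsh and Ctso overlapped.

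Among the 10 glycosidases Hexa rose, Manba fell and 8 did not pass in the authors' deposited table, with a class median log2 fold change of 0.38. Over all genes tested 1.54% rose and 1.92% fell, and 1 gene each way in a class of 10 gives no result for the class. Hexa, the alpha subunit of beta-hexosaminidase, which trims gangliosides together with its activator Gm2a, had 20043 and 28268 normalized counts in group B, against 10067 and 8726 in group A. B2 was well above B1, and both lay far above group A. Its log2 fold change (ENSMUSG00000025232, chr9:59539540-59565109) was 1.36 with an adjusted p of 0.0130 in the authors' deposited table, and limma gave 1.34 (SE 0.18, adjusted p 0.0350). Gm2a had 1342 and 1786 normalized counts in group B, against 1742 and 1903 in group A, and its groups overlapped.

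Manba, the beta-mannosidase that removes the last mannose of N-glycan breakdown, had 12293 and 10657 normalized counts in group B, against 21500 and 18991 in group A. The B libraries lay well below both A libraries. The log2 fold change of Manba (ENSMUSG00000028164, chr3:135485611-135571404) was -0.82 with an adjusted p of 0.000672 in the authors' deposited table, and -0.82 (SE 0.12, adjusted p 0.0404) in limma. Man2b1, the alpha-mannosidase of the same breakdown, had 9790 and 11260 in group B, against 8242 and 8183 in group A. It was higher in both B libraries without passing (0.36 on the log2 scale at adjusted p 0.519, from the authors' deposited table).

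Glb1, the beta-galactosidase, was just outside the threshold. Its normalized counts were 8224 and 9630 in group B, against 6081 and 6003 in group A, with no overlap (0.56 on the log2 scale at adjusted p 0.0723, from the authors' deposited table). Neu1, the neuraminidase that removes sialic acid, had 2403 and 3189 in group B, against 2239 and 1743 in group A (0.49 on the log2 scale at adjusted p 0.70, from the authors' deposited table). Gusb, the beta-glucuronidase of glycosaminoglycan breakdown, was also higher in each B library than in either A library (0.45 on the log2 scale at adjusted p 0.247, from the authors' deposited table). The groups of Idua and Naglu, further enzymes of glycosaminoglycan breakdown, of the glycogen-degrading Gaa and of the fucosidase Fuca1 overlapped, with log2 fold changes of -0.01 for Fuca1 to 0.40 for Idua in the authors' deposited table. In Idua the difference lay in 1 library, with 637 in B1 and 1029 in B2, against 650 in A1 and 608 in A2.

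None of the 4 sulfatases passed in the authors' deposited table or in limma, although all 4 log2 fold changes were above 0, with a median of 0.43. At an unadjusted p under 0.05, 1 was higher in the authors' deposited table and 2 in limma, against 5.11% of all genes tested and 10.3% of those in the limma fit. Sulfatases remove sulfate groups from glycosaminoglycans and sulfolipids. Arsa, which acts on sulfatide and had the highest mean of the class, had 1791 and 2550 normalized counts in group B, against 1877 and 1911 in group A. B1 was below both A libraries and B2 above them. Galns and Arsb, which cut sulfate from keratan and dermatan sulfate, were higher in each B library than in either A library, with log2 fold changes of 0.66 and 0.96 in the authors' deposited table. Arsb was scarce, with 129 and 209 counts in group B, against 102 and 71.2 in group A. Sgsh, which acts on heparan sulfate, overlapped between groups.

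Of the 9 lipid enzymes, activators and carriers Asah1 rose, 8 did not pass and the class median log2 fold change was 0.46, in the authors' deposited table. All 9 reached a mean of 1000, where 2.38% of all genes rose, and 1 gene in 9 gives no result for the class. Asah1, the acid ceramidase, had 15084 and 14786 normalized counts in group B, against 8843 and 7940 in group A. Its groups were tight and well apart. Its log2 fold change (ENSMUSG00000031591, chr8:41340197-41374773) was 0.83 with an adjusted p of 0.000431 in the authors' deposited table, and limma gave 0.83 (SE 0.10, adjusted p 0.0312). Npc2, the soluble carrier that hands cholesterol to Npc1, had 25825 and 35065 in group B, against 17787 and 14918 in group A. The groups did not overlap, but B2 stood well above B1 and the gene did not pass (0.90 on the log2 scale at adjusted p 0.0965, from the authors' deposited table).

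Psap, the precursor of the saposins that present sphingolipids to their enzymes, had 22842 and 31498 normalized counts in group B, against 20233 and 17929 in group A (0.51 on the log2 scale at adjusted p 0.651, from the authors' deposited table). Lipa, the acid lipase for cholesteryl esters and triglycerides, was the closest gene outside the threshold. It had 1237 and 1451 in group B, against 873 and 837 in group A (0.65 on the log2 scale at adjusted p 0.0620, from the authors' deposited table). The phospholipase Pla2g15, the thioesterase Ppt1 and the galactosylceramidase Galc were also higher in each B library than in either A library, though 1570 counts of Galc in B1 barely exceeded 1568 in A2. Smpd1, the acid sphingomyelinase, had 1515 and 1600 in group B, against 1970 and 1808 in group A, so both B libraries were lower (-0.28 on the log2 scale at adjusted p 0.817, from the authors' deposited table).

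Within the 6 membrane proteins Cd63 rose and 5 did not pass in the authors' deposited table, with a class median log2 fold change of 0.55. All 6 reached a mean of 1000, where 2.38% of all genes rose, and 1 gene in 6 gives no result for the class. Cd63, a tetraspanin of late endosomes and exosomes, had 17269 and 16813 normalized counts in group B, against 8613 and 5492 in group A. The B libraries were nearly equal and the A libraries were not. The log2 fold change of Cd63 (ENSMUSG00000025351, chr10:128900989-128912822) was 1.27 with an adjusted p of 1.85e-08 in the authors' deposited table, and 1.31 (SE 0.21, adjusted p 0.0487) in limma. Lamp1, the main glycoprotein of the lysosomal membrane, had 88399 and 89614 in group B, against 62256 and 61749 in group A, and the libraries of each group were almost identical. Its log2 fold change (ENSMUSG00000031447, chr8:13159161-13175338) was 0.52 with an adjusted p of 0.0868 in the authors' deposited table, but 0.52 (SE 0.07, adjusted p 0.0320) in limma.

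Mcoln1, a calcium-permeable channel of the membrane, had 3490 and 4022 normalized counts in group B, against 2576 and 2454 in group A (0.58 on the log2 scale at adjusted p 0.0743, from the authors' deposited table). Cln3 and the cholesterol transporter Npc1 were also higher in both B libraries, with log2 fold changes of 0.59 and 0.44 in the authors' deposited table. Scarb2, a glycoprotein that spans the lysosomal membrane, had 8190 and 7672 in group B, against 8243 and 10232 in group A. Its B libraries were lower, B1 by a small margin (-0.22 on the log2 scale at adjusted p 1, from the authors' deposited table).

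Grn, the precursor of the granulins and the one soluble protein outside the enzyme classes, had 18696 and 24257 normalized counts in group B, against 12265 and 11026 in group A. The groups did not overlap. Its log2 fold change (ENSMUSG00000034708, chr11:102430315-102437048) was 0.88 with an adjusted p of 0.0240 in the authors' deposited table, and 0.87 (SE 0.15, adjusted p 0.0503) in limma.

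**Figure D2:**
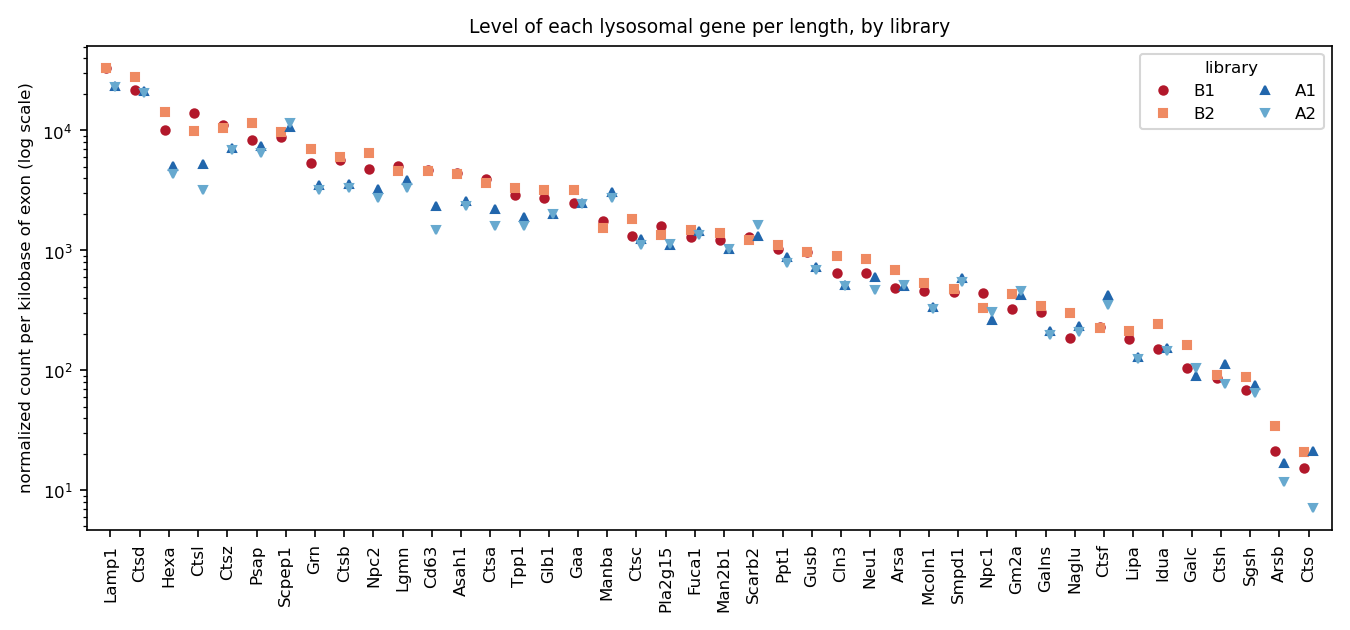
Level of each gene as normalized count per kilobase of merged exons (log axis) in the B libraries (circles and squares, left) and the A libraries (triangles, right), ordered by the mean of group B. Lamp1 and Ctsd stand at the top with group B means of 33273 and 24820, and Arsb and Ctso at the bottom with 28.0 and 18.1.

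Levels can be set against each other per length, and they ranged over 3 orders of magnitude (merged exons of GENCODE M21). Merged exons join those of all annotated transcripts of a gene and may be longer than the RNA present, so the order depends on the annotation. They span 6489 bases in Ctsl and 5438 in Npc2, against 2675 in Lamp1 and 1996 in Hexa. Lamp1 was highest, with a mean normalized count per kilobase of 33273 in group B and 23178 in group A, followed by Ctsd with 24820 in group B and 20821 in group A. The next places differed between the groups. Hexa ranked 3 in group B and 6 in group A per kilobase, Ctsl ranked 4 in group B and 7 in group A, and Scpep1 ranked 7 in group B and 3 in group A. Cd63 ranked 12 in group B and 16 in group A, and Manba ranked 18 in group B and 12 in group A. Lamp1 and Ctsd together with Hexa, Ctsl and Ctsz made up the top 5 places in group B. At the low end, Ctsh, Sgsh, Arsb and Ctso held ranks 39 to 42 in both groups, and no neighbouring pair at this end is separated from the next by a test.

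Several lysosomal genes carried E-boxes near their start. RefSeq promoter windows (GRCm38.p6, 250 bases before to 50 after the start) were found for 37 of the 42 genes, 41 windows in all. Npc1, Galns, Ctsh, Asah1 and Ctsb had no window, so E-boxes are unknown for Asah1 and Ctsb, which rose. The E-box CACGTG, a palindrome and therefore the same on both strands, occurred in 13 of the 41 windows, from 13 genes, which is 31.7%, against 7.15% of all 32851 windows. Of these genes, Ctsa, Cln3 and Lgmn each have a further window without a match. Its longer form TCACGTGA occurred in 4 member windows, 9.76%, against 0.974% of all windows. The form of 10 bases, TCACGTGA with a G before it and a C after it, occurred in 1 member window, that of Cln3, which is 2.44%, against 0.326% of all windows. Each longer form contains the shorter ones. A match is a description of these letters and no evidence of binding. Ctsd has 2 CACGTG in its window, of which only that within TCACGTGA is shown. The stretches shown are those of genes with the longer form, of Lamp1, which has 4 E-boxes, and of Ctsl and Ctsf, which with Ctsa are the genes with an E-box that passed, with matches in capitals:
Ctsa, chr2:164833739-164833805, plus strand: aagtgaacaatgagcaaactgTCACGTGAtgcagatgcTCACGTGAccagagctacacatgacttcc
Cln3, chr7:126583330-126583407, minus strand: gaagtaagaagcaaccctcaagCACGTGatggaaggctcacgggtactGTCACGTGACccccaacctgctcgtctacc
Ctsd, chr7:142387898-142387947, minus strand: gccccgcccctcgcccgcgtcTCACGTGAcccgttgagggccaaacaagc
Mcoln1, chr8:3500426-3500501, plus strand: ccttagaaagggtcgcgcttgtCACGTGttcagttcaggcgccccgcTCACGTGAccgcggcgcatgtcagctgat
Lamp1, chr8:13159078-13159173, plus strand: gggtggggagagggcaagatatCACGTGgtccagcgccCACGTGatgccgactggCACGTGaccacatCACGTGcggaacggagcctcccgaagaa
Ctsl, chr13:64370729-64370770, minus strand: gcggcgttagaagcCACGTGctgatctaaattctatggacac
Ctsf, chr19:4855064-4855113, plus strand: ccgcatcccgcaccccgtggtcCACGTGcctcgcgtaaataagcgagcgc

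The 13 genes with CACGTG had a median log2 fold change of 0.43, with 2 that rose and 1 that fell, and the 24 genes without it had a median of 0.44, with 5 that rose and 1 that fell, by the authors' deposited table. Over all genes tested 1.54% rose and 1.92% fell. The 4 genes with TCACGTGA, shown in the first 4 stretches, ran from 0.25 for Ctsd to 0.99 for Ctsa, by the authors' deposited table. Hexa and Cd63, which had the largest changes after Ctsl, had no E-box in their windows.

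Of 46 further lysosomal genes 3 (Lamp2, Gla and Ids) are X-linked and listed at 0, and of the remaining 43 the authors' deposited table has 7 higher, 0 lower and a median log2 fold change of 0.36. The 7 are 16.3% of the 43, against 1.54% of all genes tested called higher and 1.92% called lower. This list too was chosen with earlier results of these data known. At an unadjusted p under 0.05, 17 of the 43 were higher and 1 lower in the authors' deposited table, against 5.11% and 5.41% of all genes tested. Limma had 23 higher and 2 lower at that threshold, against 10.3% and 10.4% of the genes in its fit. At its adjusted p limma called 3 higher and 0 lower, against 0.977% and 1.03%. Ctss, a cathepsin of antigen-presenting cells, had 204 and 174 normalized counts in group B, against 31.3 and 20.8 in group A (2.86 on the log2 scale at adjusted p 5.71e-09, from the authors' deposited table). Slc17a5, which exports sialic acid, had 2302 and 2191 in group B, against 1151 and 1105 in group A (0.99 on the log2 scale at adjusted p 7.13e-05, from the authors' deposited table). Gpnmb and Arsk rose by 2.35 and 0.83 on the log2 scale in the authors' deposited table. Hpse, which cuts heparan sulfate, rose as well, with 364 and 259 in group B, against 119 and 101 in group A (adjusted p 0.00309 in the authors' deposited table).

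Delivery of the enzymes depends on further genes. Of 27 sorting and activation genes 1 rose and 1 fell in the authors' deposited table, with a median log2 fold change of 0.15. Each is 3.7% of the 27, which all reached a mean of 1000. That is near the 2.38% and 2.65% of all genes at that level. Gnptg, a subunit of the enzyme that starts the mannose 6-phosphate tag, had 2013 and 2250 normalized counts in group B, against 1347 and 1081 in group A (0.81 on the log2 scale at adjusted p 0.00369, from the authors' deposited table). Sort1, a sorting receptor that works beside the mannose 6-phosphate receptors, had 601 and 864 in group B, against 1969 and 2638 in group A (-1.65 on the log2 scale at adjusted p 0.000221, from the authors' deposited table). The receptors themselves, M6pr and Igf2r, did not pass, with log2 fold changes of 0.17 and 0.46 in the authors' deposited table. None of the 3 cathepsin inhibitors passed in the authors' test or in limma, and at an unadjusted p under 0.05 both analyses had 2 higher and 0 lower. At that threshold 5.11% of all genes tested were higher in the authors' test, and 10.3% of those in the limma fit. The most abundant inhibitors were Cst3 and Cstb, with log2 fold changes of 0.56 and 0.40 in the authors' deposited table.

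Of the factors that bind the CLEAR element, Mitf fell. It had 952 and 1000 normalized counts in group B, against 1802 and 2234 in group A (-1.05 on the log2 scale at adjusted p 0.000105, from the authors' deposited table). Tfeb had 6578 and 5858 in group B, against 8345 and 8856 in group A, without passing (-0.47 on the log2 scale at adjusted p 0.207, from the authors' deposited table), and the groups of the scarce Tfec overlapped. Tfe3 is X-linked and listed at 0. RNA levels do not show where these proteins were in the cell.

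**Figure D3:**
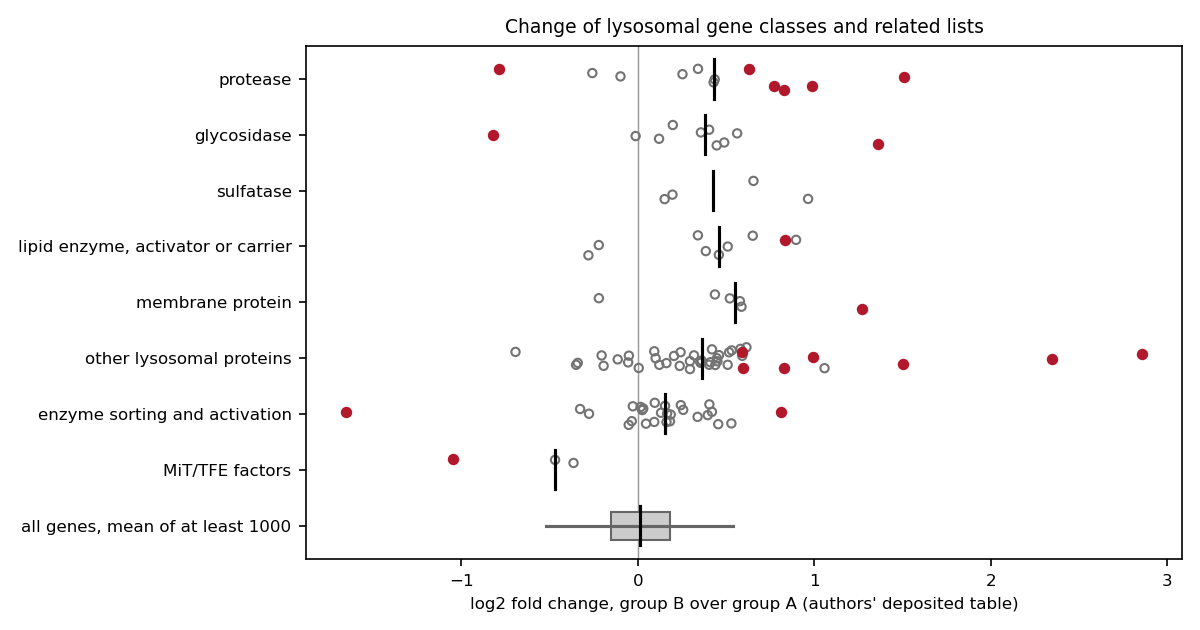
Log2 fold change of group B over group A in the authors' deposited table (x axis) for genes of the lysosomal classes and related lists (rows), filled where the adjusted p was under 0.05, with a bar at each median. Grn and the cathepsin inhibitors are not drawn. The bottom row shows the genes that reached a mean of 1000 as median, quartiles and 5 to 95% range, from -0.52 to 0.54.

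Libraries of the same group differed from each other in many of the genes. B2 was above B1 for 30 of the 42, with a median log2 ratio of 0.20, while over all genes that reached a mean of 1000 that median was -0.05. A1 was above A2 for 35 of the 42, with a median log2 ratio of 0.12, against -0.02 over all genes that reached 1000. Set against the mean of group A, the median log2 ratio of the 42 genes was 0.31 for B1 and 0.57 for B2. By class, summed normalized counts of the proteases were 265580 in B1 and 259690 in B2, against 177720 in A1 and 154540 in A2. For the lipid enzymes, activators and carriers they were 77958 in B1 and 96714 in B2, against 59382 in A1 and 53240 in A2. The glycosidases had sums of 74349 and 89196 in group B, against 69251 and 64056 in group A. The ratio of group means was 1.581 for the proteases, 1.551 for the lipid class and 1.227 for the glycosidases. It was 1.455 for the membrane proteins and 1.25 for the sulfatases. Abundant genes weigh most in such sums. Ctsl had a mean of 77824 in group B and 27390 in group A, and Manba had 11475 and 20246. Class median log2 fold changes, which weigh genes equally, were 0.43 for the proteases, 0.46 for the lipid class and 0.38 for the glycosidases.

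Markers of some other cell types differed between the groups as well. Macrophages are rich in lysosomes. Of 19 macrophage markers Cybb is X-linked and listed at 0, and 15 of the remaining 18 were higher in each B library than in either A library, with 5 called higher and 1 lower in the authors' deposited table. Over all genes tested, 21.8% were higher in each B library, and 1.54% and 1.92% were called higher and lower. The markers that rose were Lyz2, Spi1, Fcgr3, Fcgr1 and Ptprc, while Mrc1 fell, with 322 and 489 in group B, against 792 and 767 in group A. Itgam was also lower in each B library. Limma called 2 of the markers higher, Lyz2 and Spi1, and 0 lower, against 0.977% and 1.03% of the genes in its fit. Fcgr3, Fcgr1, Ptprc and Mrc1 passed in the authors' test alone. The summed level of the 18 was 20324 in B1 and 27966 in B2, against 25657 in A1 and 27468 in A2, so it was not higher in group B, and most of it came from Laptm5. Without that gene, left out after its values were seen, the sum of 17 markers was 2659 and 3746 in group B, against 1730 and 1605 in group A. Lyz2 had 951 and 1338 in group B, against 289 and 234 in group A, while Ptprc, the pan-leukocyte marker, had 45.8 and 35.5 in group B, against 1.84 and 11.9 in group A.

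In 10 of 20 endoderm markers each B library exceeded each A library, and none passed in the authors' deposited table, where 9 were higher and 2 lower at an unadjusted p under 0.05, while limma called 4 higher and 0 lower, and 9 higher and 3 lower unadjusted. The log2 fold changes of the 20 markers ran from -2.46 to 3.50 in the authors' deposited table, with a median of 0.86. Of the 20, 14 reached a mean of 1000, where 28.9% of all genes were higher in each B library. Over all genes tested, 21.8% were higher in each B library, and 5.11% and 5.41% were higher and lower at the authors' unadjusted p. In limma the shares were 0.977% and 1.03% adjusted, and 10.3% and 10.4% unadjusted. The summed level of the endoderm markers was 398770 in B1 and 286720 in B2, against 184820 in A1 and 140640 in A2. It was higher in B1 than in B2, and higher in A1 than in A2. The summed level of the 42 lysosomal genes was higher in B2 than in B1, and higher in A1 than in A2. That of the proteases alone was higher in B1 than in B2. The feeder fibroblast markers, highest in B2, overlapped between groups in 17 of 18 genes, and neither test called any, nor did any reach an unadjusted p under 0.05 in either. Their sums, given above, differed more within the groups than between them. Pluripotent cell markers summed to 863520 and 864020 in group B, against 934570 and 997410 in group A. Of these 13 markers 8 were lower in each B library than in either A library, and Fgf4 and Utf1 fell, with adjusted p of 0.000347 and 0.000237 in the authors' deposited table. All 13 reached a mean of 1000, where 26.1% of all genes were lower in each B library and 2.65% were called lower. Utf1 had 23994 and 23047 in group B, against 42044 and 52142 in group A, and Fgf4 had 8687 and 5655 in group B, against 14118 and 14819 in group A. The part of these other cell types in the lysosomal results was not tested.

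**Figure D4:**
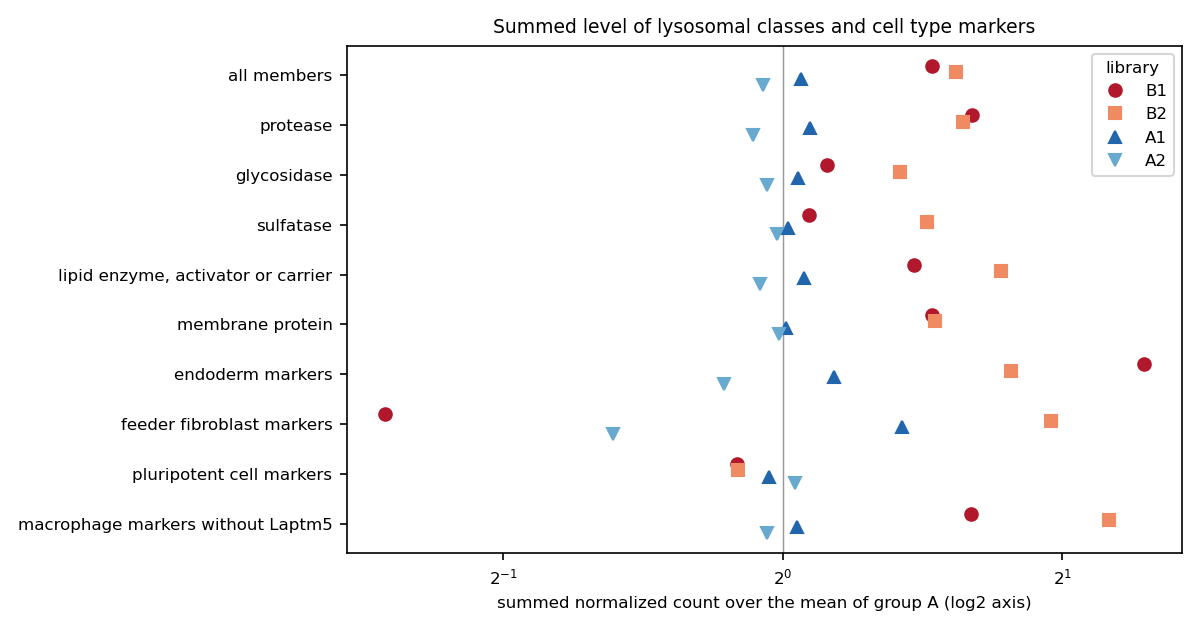
Summed normalized counts of the 42 genes, of 5 of their classes and of marker lists in each library, as a ratio to the mean of group A (log2 axis). Macrophage markers are shown without Laptm5, left out after its values were seen. With Laptm5 their sum was not higher in group B. The B libraries of the 42 genes lie at the same side, at sums of 565750 and 600920 against 409160 and 372000 in group A, whereas the feeder markers run from 38497 in B1 to 200620 in B2.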

How the data were processed

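Reads were aligned with STAR to mm10 and compared with DESeq, per the submitters' processing notes. For the read counter, strand setting and annotation release the sources used here give nothing. The authors' deposited table gives mean normalized counts of groups A and B, the fold ratio between them, the log2 fold change, and p-values before and after adjustment, and 5 repeated rows were used once. The authors' test with an adjusted p of 0.05 was the main result. Whole counts of each library were recovered from the group means, within 1e-06 for all 28353 genes of group B and 28616 of group A, and any other pair of counts missed whole numbers by at least 18.6 times as much. A second pair also fell within that tolerance for 11 genes of group B and 1700 of group A, and the nearest pair was taken. Limma 3.58.1 in R 4.3.3 (trend, log2(normalized count + 1), mean of at least 10, two-sided, Benjamini-Hochberg) was run on these counts, and fold changes on this scale understate changes of low genes. The steps were tested on simulated data. Positions, exon lengths and overlaps came from GENCODE M21. The genes and lists were chosen with earlier results of these data known. Values of every library are given for genes past the authors' threshold, the gene with the highest mean normalized count in each class and the 3 next outside it. From related lists the genes past the threshold, at most 6, or the 2 most abundant were named, except that some are not reported here. Psap, Galc, Idua, Arsb, Smpd1, Scarb2, Neu1, Man2b1, Gm2a, Tfeb, M6pr, Igf2r, Pou5f1 and Itgam were given values after these were seen.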

Additional observations from a re-analysis of the deposited data

How the results depend on the processing

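The direction of the 42 genes as a set held under each alternative, while the number past the threshold did not. At an adjusted p of 0.01 the authors' deposited table has 5 genes higher, and at 0.1 it has 15, against 9 at 0.05. The shares of all genes at 0.01 and 0.1 were not computed, so the counts there have no reference. Limma called 5 higher with upper quartile scaling, where 492 genes of the whole table were called in either direction. Under the other scalings, filters and pseudocounts it called 7 to 10 higher, with 397 to 495 genes of the whole table called. In every limma fit on 4 libraries 1 gene was lower, against 2 in the authors' test, as Ctsf missed the threshold and Manba did not. Leaving out 1 library in limma gave 0 to 14 genes higher and 0 to 1 lower, with 0 without A1 or A2, 14 without B1 and 11 without B2. The median log2 fold change then ran from 0.325 without B2 to 0.625 without B1. After seeing the data, B1 and B2 were also set alone against group A, with medians of 0.312 and 0.566. Scaling moved the median of all genes by less than 0.1. No paired analysis was possible because the recovered libraries carry no replicate numbers. A mean of 1000 normalized counts was reached by 35 of the 42 genes, and with 2 libraries a group the spread is known poorly.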
